A study of Mus musculus with 24 samples.

Results

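The genes encoding the Yamanaka factors, Pou5f1 (which encodes the protein Oct4), Sox2, Klf4 and Myc, were followed through 24 mouse RNA-seq libraries. They were chosen by name as the factors of the reprogramming mix, and make up 4 of the 23283 genes in the deposited count table. All 4 were present in it. The libraries came from cells on the way from fibroblast to induced pluripotent stem (iPS) cell, sorted by how fast they divided, and from blood progenitors sorted in the same manner.

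Bulk MEF (n = 4) are mouse embryonic fibroblasts in fibroblast medium, with no treatment. Slow MEF (n = 4) and fast MEF (n = 4) are fibroblasts in which doxycycline at 2 ug/ml had induced the Yamanaka factors for 6 days in embryonic stem cell medium with LIF. They were separated by dilution of the dye CFSE over 48 hours, a dye that each division dilutes, so fast cells keep less of it. The iPS group (n = 4) consists of factor-independent iPS cells grown in the same medium without doxycycline and sorted as Oct4:GFP+, that is, by a reporter of one of the genes studied here. Slow GMP (n = 3) and fast GMP (n = 5) are granulocyte monocyte progenitors grown in cytokines and separated after 24 hours of CFSE dilution, and the labels list no doxycycline for them. Bulk MEF are labelled unsorted and slow cycling and iPS cells fast cycling, although the protocol given for every library sorts 1000 cells into a well. Mouse strain, age, sex, the promoter and arrangement of the induced transgenes, and whether replicates are separate animals or cultures are not stated in the labels. The p-values are therefore set against a spread between libraries that may be technical. Medium, LIF, doxycycline and the CFSE sort all differ between bulk and sorted MEF, and cannot be told apart.

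Library totals ran from 4937453 to 18648132 counts in MEF and iPS cells and from 2098846 to 4411526 in GMP. Rn45s, the ribosomal RNA precursor, and Lars2 together took 19.9% to 48.9% of the counts in GMP and 3.05% to 11.7% elsewhere. Summed fibroblast markers stood at 22478 to 39894 CPM (read counts scaled to library size) in bulk MEF, 41403 to 80185 in slow MEF and 1978 to 4910 in fast MEF, with all 10 markers detected in each. The 8 keratinocyte markers summed to 15293 to 29847 CPM in fast MEF and 69.2 to 656 in slow MEF. Pluripotent cell markers, which leave out the 4 genes, reached 1957 to 2672 CPM in iPS cells and at most 36.5 in fast MEF. In bulk libraries such as these, fewer cells of a type and less RNA per cell cannot be told apart.

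Oct4 is a POU-domain and Sox2 an HMG-box transcription factor, and both proteins bind next to each other at octamer and Sox motifs of many genes active in pluripotent cells. Klf4 is a zinc finger factor that binds CACCC and GC-rich boxes, and in skin and gut it is known for its part in epithelial differentiation. Myc is a basic helix-loop-helix factor that binds E-boxes with its partner Max and is known for raising genes of ribosome building, metabolism and cell growth. Expressed together, the 4 factors can turn fibroblasts into iPS cells, after which the cells' own Pou5f1 and Sox2 genes keep the pluripotent state without the transgenes. The counts are per gene symbol, so reads from an induced transgene and from the cell's own gene were not separated.

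The region around the start site of Pou5f1, Sox2 and Klf4 is shown because it holds the DNA from which the cell's own gene, unlike a transgene, is transcribed. Sequences of 250 bases before to 50 bases after the start were taken from RefSeq (build GRCm38.p6), where 3 of the 4 symbols matched, and Myc did not. Pou5f1 has 2 start sites there, and the first is printed. Letters in capitals mark matches, on either strand, to the octamer ATGCAAA, the Sox motif CATTGT, the E-box CACGTG or the box CACCC.
Pou5f1, chr17:35505782-35506081, plus strand: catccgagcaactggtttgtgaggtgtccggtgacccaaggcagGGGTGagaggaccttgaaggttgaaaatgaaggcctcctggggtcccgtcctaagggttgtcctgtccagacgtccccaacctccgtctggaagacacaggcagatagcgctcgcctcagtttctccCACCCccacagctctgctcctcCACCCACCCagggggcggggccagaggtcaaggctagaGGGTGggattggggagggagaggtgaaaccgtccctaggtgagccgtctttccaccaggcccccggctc
Sox2, chr3:34649745-34650044, plus strand: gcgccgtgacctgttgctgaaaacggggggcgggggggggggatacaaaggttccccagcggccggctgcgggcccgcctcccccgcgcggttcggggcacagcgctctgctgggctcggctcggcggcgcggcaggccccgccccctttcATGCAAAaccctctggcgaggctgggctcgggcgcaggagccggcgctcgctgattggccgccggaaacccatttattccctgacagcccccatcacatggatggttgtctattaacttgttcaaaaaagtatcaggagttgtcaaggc
Klf4, chr4:55532426-55532725, minus strand: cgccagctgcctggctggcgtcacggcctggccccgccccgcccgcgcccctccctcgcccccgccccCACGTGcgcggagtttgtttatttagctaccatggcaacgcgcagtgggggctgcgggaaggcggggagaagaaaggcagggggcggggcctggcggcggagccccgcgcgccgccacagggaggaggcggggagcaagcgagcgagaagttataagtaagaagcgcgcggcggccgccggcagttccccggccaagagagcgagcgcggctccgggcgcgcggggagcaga
The first Pou5f1 window held 5 CACCC boxes, the Sox2 window 1 octamer and the Klf4 window 1 E-box. Among 32851 such windows, 57.5% held CACCC at least 1 time, 4.63% the octamer, 7.15% the E-box and 12.6% the Sox motif. Holding any CACCC box is thus common, and the share of windows with 5 of them was not computed. The windows also differed in CpG content, with 40 CpG in Klf4, 27 in Sox2 and 11 in the first Pou5f1 window, against a median of 7 over all windows. The second Pou5f1 window, 2775 bases further along, held 1 Sox motif, 1 CACCC box and 6 CpG. Motif matches describe the letters only, as no binding was measured here.

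Pou5f1 mRNA was close to absent in fibroblasts and blood progenitors and high in fast MEF and iPS cells. Bulk MEF libraries 1 to 4 had 4, 3, 22 and 0 Pou5f1 counts, which corresponds to 0.391, 0.28, 2.23 and 0 CPM. A count of 0 in 1 library allows up to 3 counts, and these limits cover counting error only. Slow MEF had 11, 26, 35 and 12 counts, or 1.18, 2.12, 4.42 and 1.18 CPM. Fast MEF reached 20.2, 33.8, 112 and 70.9 CPM, and iPS cells 141, 188, 255 and 227 CPM. All fast MEF libraries lay above all slow MEF libraries and below all iPS libraries, whereas slow MEF overlapped bulk MEF through bulk replicate 3. In GMP, Pou5f1 had 1, 0 and 8 counts in slow and 3, 0, 3, 1 and 0 counts in fast libraries, at most 3.66 CPM. From the top, group means ran from iPS cells (203 ± 49.4 CPM, SD) over fast MEF (59.2 ± 41.2) to slow MEF (2.22 ± 1.53). Slow GMP (1.34 ± 2.02), bulk MEF (0.725 ± 1.02) and fast GMP (0.461 ± 0.475) came last, each overlapping its neighbour in this order.

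Sox2 followed the same order of groups at the top with higher counts. Its bulk MEF libraries held 8, 4, 42 and 1 counts (0.783, 0.374, 4.26 and 0.113 CPM). In slow MEF it was at 5.03, 8.73, 16.3 and 3.63 CPM, from 37 to 129 counts. Fast MEF had 200.2, 213, 393 and 373 CPM and iPS cells 359, 623, 762 and 496 CPM. The fast MEF and iPS ranges overlapped, because iPS replicate 1 lay below fast MEF replicates 3 and 4. Only bulk replicate 3 kept the bulk and slow MEF ranges from separating. The GMP libraries held at most 3 Sox2 counts each, with 5 counts in all slow and 5 in all fast GMP libraries together. Group means were 560.01 ± 173 CPM in iPS cells, 295 ± 102 in fast MEF, 8.42 ± 5.67 in slow MEF, 1.38 ± 1.94 in bulk MEF, 0.631 ± 0.277 in slow GMP and 0.43 ± 0.446 in fast GMP (SD). The bulk MEF and both GMP groups overlapped at this depth.

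Klf4 was present in every library, untreated fibroblasts included, and peaked in fast MEF. Bulk MEF had 121.5, 123.8, 151 and 125.5 CPM, a narrow spread with a coefficient of variation of 10.6%. Slow MEF had 35, 128, 118 and 86.2 CPM and fast MEF 428, 522, 906 and 778 CPM. The iPS libraries were again close together at 249.96, 239, 264 and 208 CPM. Each fast MEF library exceeded each iPS library, and each iPS library exceeded each bulk and slow MEF library. Slow GMP had 49.8, 103 and 197 CPM and fast GMP 43, 65.4, 104, 89.4 and 239 CPM, overlapping the bulk and slow MEF values. Below fast MEF (659 ± 221 CPM, SD) and iPS cells (240.1 ± 24.2), bulk MEF (130.5 ± 13.8), slow GMP (117 ± 74.5), fast GMP (108 ± 76.9) and slow MEF (91.9 ± 42) overlapped one another.

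Myc was also present in every library and was highest in fast MEF, where its 4 libraries agreed closely. They stood at 626, 707, 673 and 759 CPM, a coefficient of variation of 8.09%, against 33.6% for Klf4, 34.7% for Sox2 and 69.6% for Pou5f1 in the same libraries. Fast MEF replicates 3 and 4 were thus the higher pair for Pou5f1, Sox2 and Klf4, while Myc was lowest in replicates 1 and 3. Bulk MEF had 97.4, 104, 251 and 135 Myc CPM and slow MEF 55.9, 48.2, 76.4 and 38.1 CPM, and these ranges did not overlap. In iPS cells Myc was at 61.7, 133, 146 and 54.4 CPM, within the span of the other non-induced groups. Slow GMP had 11.9, 42 and 58 CPM and fast GMP 38.3, 44.9, 154, 53.9 and 10 CPM. By mean, fast MEF (691 ± 55.9 CPM, SD) was followed by bulk MEF (147 ± 71.3), iPS cells (99 ± 47.6), fast GMP (60.3 ± 55.1), slow MEF (54.7 ± 16.2) and slow GMP (37.3 ± 23.4), and neighbours after fast MEF overlapped.

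**Figure D1:**
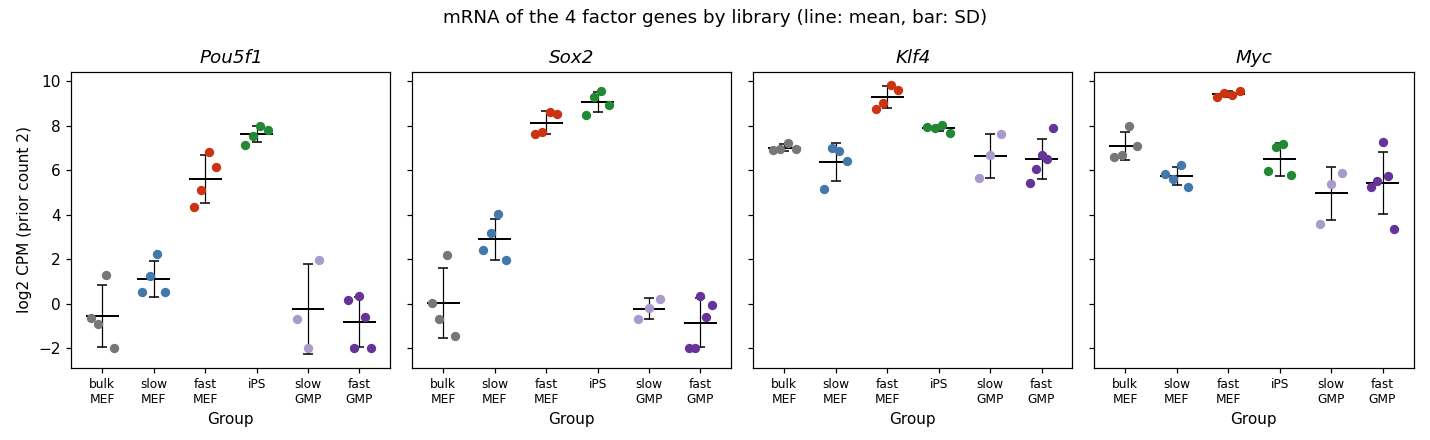
The y axis is log2 CPM with a prior count of 2, and the x axis the 6 groups. Points are libraries, lines group means and bars SD. Pou5f1 and Sox2 are near the floor in bulk MEF and GMP and high in fast MEF and iPS cells, whereas Klf4 and Myc are present throughout and highest in fast MEF.

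The first comparison asked whether the factor mRNAs differed between slow and fast dividing cells given the same induction. All 4 were higher in fast than in slow MEF, and 14.4% of the 11742 genes tested were called higher in this comparison (edgeR quasi-likelihood test, Benjamini-Hochberg adjusted p under 0.05). Sox2 was higher by 5.02 ± 0.54 on the log2 scale (SE, adjusted p = 0.000135), or 32.5-fold. Pou5f1 was higher by 4.65 ± 0.72 (adjusted p = 0.00102), or 25-fold, and by 4.03 under limma voom. The changes of Myc, at 3.54 ± 0.26 (adjusted p = 1.81e-05), and of Klf4, at 2.74 ± 0.43 (adjusted p = 0.00104), were 11.6-fold and 6.66-fold. The 4 genes together made up 0.211% ± 0.0402 of a fast and 0.0176% ± 0.00647 of a slow MEF library. Summed keratinocyte markers were higher and summed fibroblast markers lower in the same fast libraries, in the ranges given above, and their part in the factor levels was not tested.

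Against untreated bulk MEF, Klf4 and Myc, which fibroblasts already express, were higher in fast MEF, where 16.5% of 11335 genes tested were called higher. On the log2 scale they were higher by 2.31 ± 0.29 (SE, edgeR adjusted p = 0.000199) and 2.18 ± 0.32 (adjusted p = 0.00052). The fitted values were 7.67 ± 0.93 for Sox2 and 6.29 ± 1.06 for Pou5f1. Both genes passed the filter on low counts through their fast MEF counts, so their values are a description. These values rest on few counts in bulk MEF, and 1 library, bulk replicate 3, holds most of them. Without it the log2 differences of Sox2 and Pou5f1 were 9.35 and 7.92, and with all libraries limma voom gave 8.29 and the replicate block 8.27 for Sox2. That library had the highest level of all 4 genes among bulk MEF, and a count for all 8 pluripotent markers (11.1 CPM summed), although bulk replicate 1 had a higher marker sum (21.4 CPM).

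In slow MEF, which had received the same 6 days of doxycycline, 1 of the 4 genes differed from bulk MEF, and it was lower. That gene was Myc, with a log2 difference of -1.38 ± 0.37 (SE, edgeR adjusted p = 0.0377), where 4.99% of 11253 genes tested were called lower. The call for Myc was lost without bulk MEF replicate 3 (-0.997, adjusted p = 0.0948) or 4 (adjusted p = 0.0652), and without slow MEF replicate 1, 2 or 4 (adjusted p 0.0753 to 0.0945). It was also lost with upper-quartile factors (adjusted p = 0.0514), all 24 libraries (adjusted p = 0.257) and thinned counts (adjusted p = 0.0585). Sox2 was at 2.64 ± 1.01 (adjusted p = 0.122) and Pou5f1 at 1.64 ± 1.11 (adjusted p = 0.368). Without bulk replicate 3, the Sox2 difference was 4.29 and passed (edgeR adjusted p = 0.0263), while Pou5f1 at 3.24 did not (adjusted p = 0.121). Klf4 was at -0.46 ± 0.37 (adjusted p = 0.454), with a 95% interval from -1.18 to 0.26. The 3 comparisons among MEF share libraries, so their values are set side by side and are not independent of each other.

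Between iPS cells and bulk MEF, 24.1% of 11736 genes tested were called higher in iPS cells. The fitted log2 values were 8.62 ± 0.96 for Sox2 and 8.08 ± 0.93 for Pou5f1 (SE). Both genes passed the filter on low counts through their iPS counts, so these differences are a description. The cells were also chosen by a reporter of Pou5f1, so its difference from any other group is a description. Leaving out bulk replicate 3 raised these differences to 10.31 and 9.71, limma voom gave 9.55 and 9.03, and the replicate block gave 9.28 for Sox2. The rise of Klf4 was smaller, at 0.88 ± 0.22 (edgeR adjusted p = 0.0077), with no overlap between the groups, and did not pass with all 24 libraries in the fit (adjusted p = 0.225). Myc was at -0.58 ± 0.44 (adjusted p = 0.302), with a 95% interval from -1.43 to 0.28.

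The step from fast MEF to iPS cells split the 4 genes into pairs that moved in opposite directions. Pou5f1 and Sox2 were higher in iPS cells, where 18.8% of 11882 genes were called higher, and Klf4 and Myc were lower, where 19.7% were called lower. Pou5f1, the gene of the reporter, rose by 1.74 ± 0.50 on the log2 scale (SE, edgeR adjusted p = 0.0208), or by 2.39 under limma voom. The rise of Sox2, at 0.91 ± 0.32 (adjusted p = 0.0457), was lost without iPS replicate 2, 3 or 4 or fast MEF replicate 1, 2 or 4, with log2 differences of 0.72 to 1.02 (adjusted p 0.0547 to 0.119). Klf4 fell by 1.48 ± 0.27 (adjusted p = 0.00194) and Myc by 2.81 ± 0.34 (adjusted p = 0.000217), to 0.143 of its fast MEF level. With all 24 libraries in the fit, Myc still passed, while Pou5f1 (edgeR adjusted p = 0.217), Sox2 (adjusted p = 0.435) and Klf4 (adjusted p = 0.0668) did not. The iPS cells had no doxycycline, so an end of transgene transcription and a lower level of the cells' own Klf4 and Myc cannot be told apart.

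In GMP, Pou5f1 and Sox2 had too few counts to be tested between the gates. Klf4 differed by -0.08 ± 0.87 on the log2 scale between fast and slow GMP (SE, edgeR adjusted p = 0.987) and Myc by 0.65 ± 1.01 (adjusted p = 0.891). The percentage of 10057 genes called was 0, with 742 genes at an unadjusted p under 0.05, and DESeq2 called 97 genes and limma voom 0. The 95% intervals, from -1.79 to 1.63 for Klf4 and from -1.32 to 2.62 for Myc, were wide. They did not reach the fast against slow MEF differences of 2.74 for Klf4 and 3.54 for Myc. The gate differences of MEF and GMP were compared by the interaction below, where neither gene passed in the main analysis. Directions turned when 1 library was left out, with Klf4 at 0.55 without slow GMP replicate 3 and Myc at -0.022 without fast GMP replicate 3. Against bulk MEF, 0 of the 2 genes tested differed, where 21.3% of 12170 genes were called in either direction. Klf4 was at -0.08 ± 0.60 (adjusted p = 0.946), a direction that turned under DESeq2 size factors (0.049) and upper-quartile factors (0.15). Myc was at -1.52 ± 0.69 (adjusted p = 0.131), and passed without fast GMP replicate 3 (-1.88, edgeR adjusted p = 0.0492). Against iPS cells, the fitted values were -9.99 ± 0.88 for Sox2 and -7.88 ± 1.04 for Pou5f1, where 7.84% of 12607 genes were called lower. Both genes failed the filter between the GMP gates and against bulk MEF, and entered this fit through their iPS counts. Their values are therefore a description, and iPS cells were also sorted by a reporter of Pou5f1. Pou5f1 was at -9.23 without slow GMP replicate 3, which held 8 of the 9 slow GMP counts, and at -8.54 under limma voom. Klf4 (-1.01 ± 0.57, adjusted p = 0.237) and Myc (-0.999 ± 0.70, adjusted p = 0.351) did not pass.

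Whether the difference between fast and slow cells was itself larger in MEF than in GMP was asked with the interaction of gate and cell type. For Klf4 it was 2.84 ± 0.89 on the log2 scale (SE, edgeR adjusted p = 0.0891) and for Myc 2.85 ± 0.95 (adjusted p = 0.103), so neither passed, and 0.601% of 13814 genes tested were called higher. Klf4 passed without fast GMP replicate 5 (3.47, edgeR adjusted p = 0.0354) and Myc without fast GMP replicate 3 (3.68, adjusted p = 0.0357), and both passed under DESeq2 and with all 24 libraries in the fit. Pou5f1 and Sox2 entered this fit only through their MEF counts, having failed the filter on low counts between the GMP gates. Their fitted values, 6.00 ± 1.65 for Pou5f1 (adjusted p = 0.0669) and 5.62 ± 1.31 for Sox2 (adjusted p = 0.0374), rest on 9 and 7 Pou5f1 counts and on 5 and 5 Sox2 counts in the slow and fast GMP libraries. A gate difference in GMP could not be measured at this depth for either gene, and the values are no evidence of a difference between MEF and GMP. They moved to 3.27 for Pou5f1 without slow GMP replicate 3 and to 6.54 for Sox2 without fast GMP replicate 3. The Pou5f1 value passed without slow GMP replicate 2 (edgeR adjusted p = 0.0448) or fast GMP replicate 1 (adjusted p = 0.0487). The Sox2 value missed the threshold without any 1 of the slow GMP libraries, of the fast MEF libraries or of slow MEF replicates 1, 2 and 4 (adjusted p 0.0504 to 0.077).

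**Figure D2:**
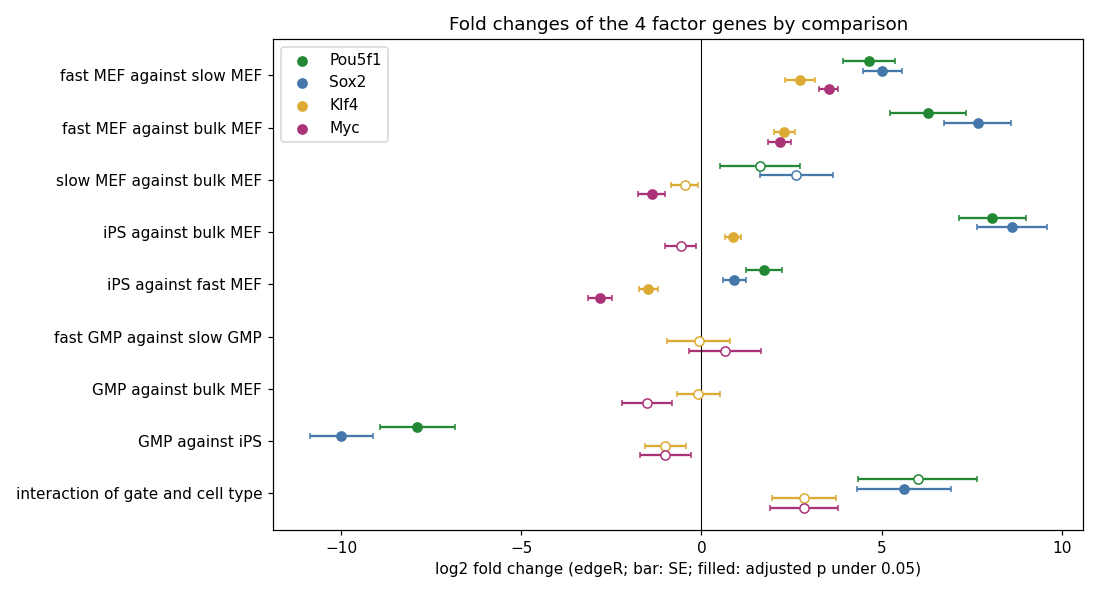
The x axis is the log2 fold change and each row is 1 comparison, with the interaction in the last row, where Pou5f1 and Sox2 rest on a few GMP counts. Points are edgeR estimates, bars SE, and filled points have an adjusted p under 0.05. Pou5f1 and Sox2 lie right of 0 and Klf4 and Myc left of 0 in iPS cells against fast MEF, and all 4 lie right of 0 in fast against slow MEF.

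Ratios between the genes' counts within a library do not depend on its depth or scaling. They were compared where both genes had at least 10 counts in every library of both groups, which gave 16 tests. Because 4 genes give 6 pairs, the ratios are not independent. The iPS cells were sorted by a reporter of Pou5f1, so differences of iPS cells in ratios that contain Pou5f1 are a description. With 4 libraries against 4, the smallest 2-sided p of the exact permutation test is 0.0286, and 10 of the 16 tests reached it, each with an adjusted p of 0.0457.

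The count ratio of Sox2 to Klf4 was the most even among fast MEF libraries, at 0.467, 0.408, 0.433 and 0.479, although both genes varied between them. In slow MEF it was 0.144, 0.068, 0.138 and 0.042, and in iPS cells 1.44, 2.61, 2.88 and 2.39. The 3 groups did not overlap, and iPS cells were the one group with more Sox2 than Klf4 counts. The log2 ratio was higher in fast than in slow MEF by 2.35 ± 0.43 (SE) and higher in iPS cells than in fast MEF by 2.34 ± 0.23, both with exact permutation p = 0.0286. Sox2 to Myc went the same way, with geometric means of 0.136 in slow MEF, 0.408 in fast MEF and 5.99 in iPS cells. Its steps were 1.59 ± 0.39 and 3.88 ± 0.31 on the log2 scale, again at the smallest p.

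Pou5f1 rose against Klf4 by 1.69 ± 0.47 on the log2 scale from slow to fast MEF and by 3.43 ± 0.37 from fast MEF to iPS cells (SE, exact permutation p = 0.0286 each). Even so, fast MEF libraries had only 0.047, 0.0648, 0.124 and 0.0911 Pou5f1 counts for each Klf4 count, and iPS cells 0.565, 0.787, 0.964 and 1.09. Pou5f1 to Myc did not differ beyond the spread between slow and fast MEF (0.92 ± 0.61, exact permutation p = 0.171, adjusted 0.229). From fast MEF to iPS cells this ratio rose by 4.97 ± 0.62 (exact permutation p = 0.0286), or 31.4-fold, from geometric means of 0.07 to 2.2.

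Sox2 to Pou5f1 was higher in fast MEF than in iPS cells. The ratios were 9.94, 6.29, 3.51 and 5.26 in fast MEF, 2.54, 3.32, 2.99 and 2.19 in iPS cells and 4.27, 4.12, 3.69 and 3.08 in slow MEF. All fast MEF values exceeded all iPS values, and the log2 ratio fell by 1.10 ± 0.34 (SE, exact permutation p = 0.0286). The slow and fast MEF ranges overlapped (0.66 ± 0.33, exact permutation p = 0.114, adjusted 0.166). Within fast MEF the ratio was highest in replicate 1, the library with the lowest Pou5f1 level.

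Klf4 to Myc was near 1 in bulk MEF (1.25, 1.19, 0.602 and 0.932) and in fast MEF (0.685, 0.739, 1.35 and 1.03), and these did not differ beyond their spread (log2 difference -0.06 ± 0.33, exact permutation p = 0.886). In iPS cells it was 4.05, 1.79, 1.81 and 3.81, which is 1.48 ± 0.40 above bulk MEF and 1.54 ± 0.40 above fast MEF on the log2 scale (exact permutation p = 0.0286 each). Slow MEF ran from 0.625 to 2.66 and overlapped both other MEF groups (0.70 ± 0.53 against bulk, exact permutation p = 0.229; fast against slow -0.76 ± 0.52, exact permutation p = 0.2). Slow GMP had 4.18, 2.45 and 3.39 Klf4 counts for each Myc count. Fast GMP had 1.12, 1.46, 0.671, 1.66 and 23.9, the last from 334 Klf4 and 14 Myc counts in replicate 5, and the GMP gates did not differ beyond their spread (exact permutation p = 0.679, smallest possible 0.0357). Without that library the log2 difference of fast against slow GMP was -1.48, against -0.62 with it.

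**Figure D3:**
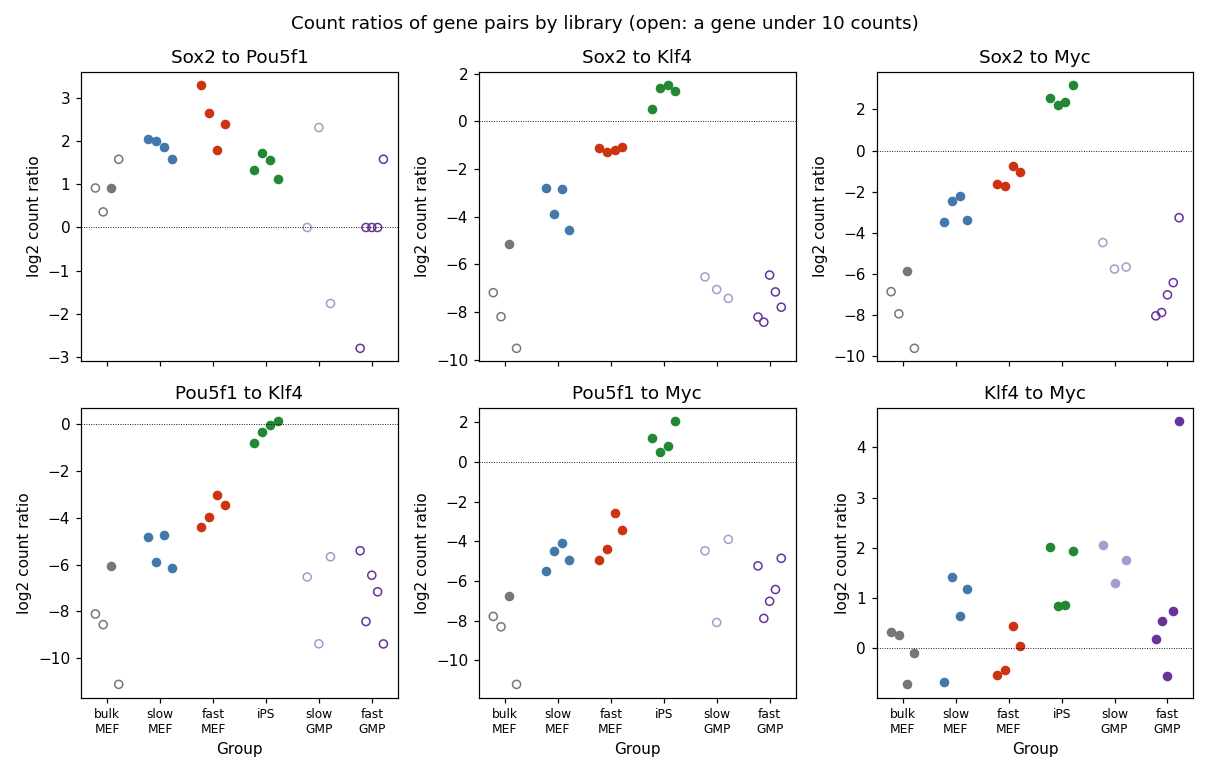
Each panel shows the log2 count ratio of 1 gene pair (y axis) by group (x axis), with a point for each library. Open points have under 10 counts for a gene and entered no test. The fast MEF points of Sox2 to Klf4 lie within 0.408 to 0.479 on the linear scale, and the iPS points lie above them for each pair other than Sox2 to Pou5f1.

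As shares of the 4 genes' summed counts, Klf4 and Myc made up nearly everything in bulk MEF (48.6% ± 8.37 and 50.7% ± 7.84, SD, n = 4). Fast MEF kept both as the main part, with Myc at 41.9% ± 8.01 and Klf4 at 37.9% ± 4.39, Sox2 at 17% ± 2.24 and Pou5f1 at 3.21% ± 1.66. In slow MEF, Sox2 took 5.05% ± 1.96 and Pou5f1 1.33% ± 0.50. In iPS cells Sox2 was the main part at 50.2% ± 4.17, followed by Klf4 (22.6% ± 5.54), Pou5f1 (18.5% ± 3.11) and Myc (8.66% ± 2.60). Klf4 led in slow GMP (75.4% ± 4.55, n = 3) and by mean in fast GMP (61.8% ± 20.8, n = 5), where its share ran from 39.8% to 95.7%.

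**Figure D4:**
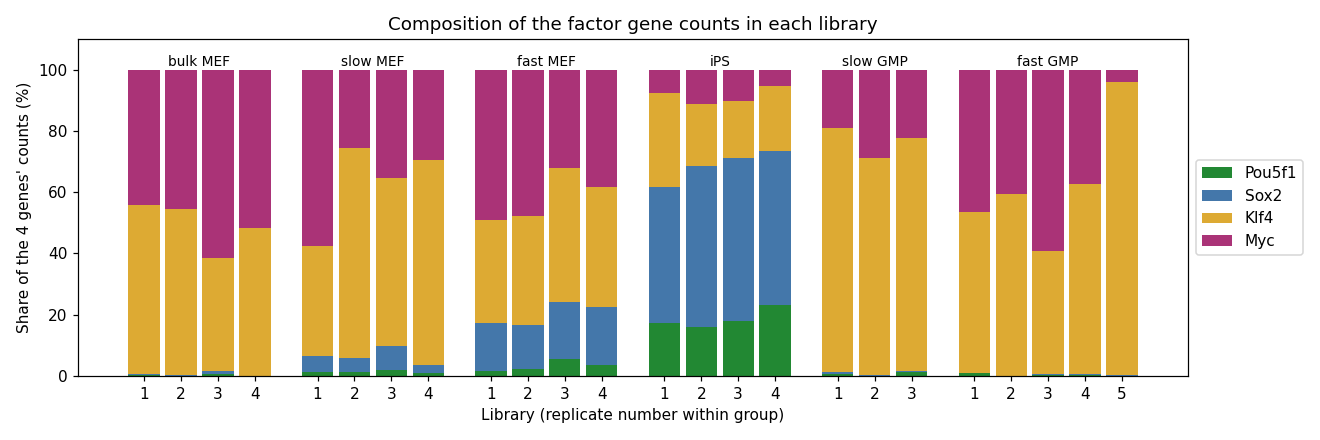
Stacked bars give each gene's share (%, y axis) of the 4 genes' counts in each library (x axis, replicate number). Klf4 and Myc fill the bars of bulk MEF and GMP, Sox2 and Pou5f1 appear in slow and fast MEF, and Sox2 is the largest part in all 4 iPS libraries.

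Counts favour long transcripts, so levels between genes were also set per kilobase of the longest annotated transcript (1362 bases for Pou5f1, 2057 for Sox2, 3029 for Klf4 and 2338 for Myc in the GENCODE annotation of GRCm38). On this scale fast MEF had 296 ± 23.9 CPM per kilobase for Myc, 218 ± 73.1 for Klf4, 143 ± 49.7 for Sox2 and 43.5 ± 30.2 for Pou5f1 (SD, n = 4). In iPS cells the levels were 272 ± 83.9 for Sox2, 149 ± 36.3 for Pou5f1, 79.3 ± 7.97 for Klf4 and 42.3 ± 20.3 for Myc. Pou5f1 thus stood last by level in fast MEF and above Klf4 in iPS cells on this scale. A transgene may lack the untranslated ends of the gene, and per kilobase of coding sequence fast MEF kept the order, with 507 ± 41.1 for Myc and 56.1 ± 39 for Pou5f1. With reverse transcription from the poly(A) tail, length may not set the counts at all, so these orders depend on that assumption.

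Genes that the factors are known to act on moved to different degrees in fast MEF. Of the 16 genes bound by Oct4 and Sox2 in pluripotent cells, 7 were tested between fast and slow MEF and 3 were higher, against 14.4% of all genes tested. Their median log2 difference was 1.11 against -0.11 for all genes. Sall4, a zinc finger factor of pluripotent cells, rose by 2.97 ± 0.78 (SE, edgeR adjusted p = 0.0151) and Rest, a repressor of neuronal genes, by 1.11 ± 0.33 (adjusted p = 0.0253). Nanog, a core factor of pluripotent cells, was at 1.43 ± 1.04 CPM in fast MEF and 36.5 ± 1.88 in iPS cells. Against bulk MEF, 3 of 10 tested, Sall4 and Rest among them, were higher in fast MEF, where 16.5% of all genes were. In iPS cells 16 of 16 were higher than in bulk MEF (24.1% of all genes) and than in fast MEF (18.8% of all genes). Of these 16, 6 had too few counts to be tested between fast MEF and either slow or bulk MEF and passed the filter through iPS cells, where they are high, so the counts of 16 are a description. Among these 6, Dppa4, a chromatin protein of early embryos, was at 98.3 CPM in iPS cells and 0.0853 in fast MEF (log2 difference 10.35 ± 0.70). Tdgf1, a Nodal co-receptor, was at 139 and 0.173 CPM (10.28 ± 0.89). These values are a description too.

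Myc targets of growth rose in fast MEF against slow MEF for 17 of 24 genes tested, with 0 lower, against 14.4% of all genes called higher. The median was 1.26 against -0.11 for all genes. Tfrc, the transferrin receptor, rose by 3.76 ± 0.64 (SE, edgeR adjusted p = 0.00164), and Ddx21, a helicase of ribosome building, by 2.61 ± 0.29 (adjusted p = 0.000144). Against bulk MEF 10 rose and 2 fell in fast MEF (median 0.56), where 16.5% of all genes rose and 18.4% fell. Npm1, a nucleolar chaperone, rose by 2.44 ± 0.23 (adjusted p = 3.47e-05), while Phb, encoding prohibitin, fell by 0.77 ± 0.24 (adjusted p = 0.0267) and Ldha, a lactate dehydrogenase, by 0.75 ± 0.17 (adjusted p = 0.00575). In iPS cells, where Myc itself did not differ from bulk MEF past the threshold, 18 of the 24 were higher than in bulk MEF and 0 lower (median 1.32), against 24.1% of all genes higher. Against fast MEF, where Myc mRNA was lower, 11 of the 24 rose and 1 fell in iPS cells (median 0.68), where 18.8% of all genes rose and 19.7% fell. Phb rose there by 2.11 ± 0.17 (adjusted p = 1.94e-05), while Cad, an enzyme of pyrimidine synthesis, fell by 1.12 ± 0.33 (adjusted p = 0.0237).

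Epithelial genes, a list that includes Klf4 targets, were higher in fast than in slow MEF for 15 of 16 genes (median 5.09, all genes -0.11), where 14.4% of all genes were. Against bulk MEF 15 of 16 were higher too (median 7.46, all genes -0.05), where 16.5% of all genes were. With the genes that had no count in a group at their lower bound, the medians were 5.09 and 7.27. Jup was well detected in slow (303 CPM) and bulk MEF (360 CPM). Others were near the floor, such as Cldn7, Esrp1 and Epcam at 0.309, 0.407 and 0.763 CPM in slow MEF and 0.0313, 0.122 and 0.0559 in bulk MEF. Such genes entered these tests through their fast MEF counts, so the counts of 15 are a description. Crb3, a polarity protein, rose by 6.87 ± 1.12 (SE, edgeR adjusted p = 0.00132) and Krt19, a keratin of simple epithelia, by 6.68 ± 0.72 (adjusted p = 0.000134) against slow MEF. From fast MEF to iPS cells, the step at which Klf4 fell, 9 of 16 were lower and 1 was higher (median -1.35), against 19.7% and 18.8% of all genes. Krt8, also a keratin of simple epithelia, fell by 7.81 ± 0.49 (adjusted p = 7.3e-06), and the tight junction gene Cldn4 rose by 1.81 ± 0.40 (adjusted p = 0.00554). Against bulk MEF, 11 of 14 were higher and 1, Krt19, lower in iPS cells (median 7.11, with genes at their bound 6.93), where 24.1% of all genes were higher. Here too, some genes entered the test through their iPS counts, so the count of 11 is a description. The list overlaps in kind with the keratinocyte markers that were high in fast MEF, and the part of such cells was not tested.

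Among paralogs, genes of the same families as the factors, some rose and others fell in fast MEF. Of 30 paralogs listed, 29 were in the table and 12 were tested between fast and slow MEF, where 2 were higher and 4 lower (median -0.13), against 14.4% of all genes tested called higher and 17.3% lower. Sox13 rose by 3.15 ± 0.65 (SE, edgeR adjusted p = 0.00445) and Pou2f1, the ubiquitous octamer factor Oct1, by 2.10 ± 0.66 (adjusted p = 0.033). Sox4 fell by 3.40 ± 0.32 (adjusted p = 6.28e-05) and Sox9, a factor of cartilage, by 3.01 ± 0.51 (adjusted p = 0.00172). The others that fell, Klf2 (-4.29 ± 1.003) and Sox12 (-1.72 ± 0.48, adjusted p = 0.0197), lie outside the naming rule and were picked after their values were seen. Klf2, at 0.313 CPM in fast MEF, entered through its slow MEF counts, so its value and the count of 4 lower are a description. Of 11 tested between fast and bulk MEF, 4 were higher (Pou2f1, Sox13, Sox5 and Sox11) and 5 lower (Sox4, Sox9, Klf2, Klf5 and Mycl1), where 16.5% of all genes tested were called higher and 18.4% lower. Here Sox5 was at 0.361 CPM in bulk MEF and Klf2 at 0.301 CPM in fast MEF. Each entered through the group where it is high, so these counts are a description too.

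More of the tested paralogs rose than fell in iPS cells, although some entered the test only through their iPS counts. Against fast MEF 9 of 17 rose and 4 fell (Sox4, Sox5, Sox11 and Pou6f1), where 18.8% of all genes rose and 19.7% fell. Klf2, a paralog of Klf4, was higher in iPS cells by 9.24 ± 0.60 on the log2 scale (SE), at 236 CPM against 0.34. Mycn, a paralog of Myc, was higher by 6.15 ± 1.31, at 108 CPM against 1.40, and was picked after its value was seen. Pou3f1, a POU factor, was higher by 7.84 ± 0.93, at 50.1 CPM against 0.282. Klf2, Mycn and Pou3f1 entered this test through their iPS counts, so their values are a description. Sox11 fell by 4.82 ± 0.61 (edgeR adjusted p = 0.000278). Against bulk MEF 8 of 15 rose and 3 fell in iPS cells (Sox4, Sox9 and Sox11), where 24.1% of all genes tested were called higher and 23.3% lower. Sox15, at 70.0 CPM against 0.173, was higher by 8.60 ± 1.04, again a description because it entered through its iPS counts. Sox4 fell by 4.32 ± 0.59 (edgeR adjusted p = 0.000272).

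Among 9185 genes, those closest in pattern to each factor were found by the root mean square difference of centred log2 CPM over the 24 libraries, where a smaller value is more alike. Cldn4 was closest to Pou5f1 (0.90), followed by AU018091 (1.36), Ngfr (1.37), Rps6ka6 (1.40) and L1td1 (1.42). Stmn2, encoding a protein that binds tubulin, was closest to Sox2 (1.01), followed by Cldn4 (1.44), Phlda2 (1.53), L1td1 (1.56) and Sall4 (1.71). Pou5f1 and Sox2 were 1.26 apart, with 1 other gene closer seen from either. For Klf4 the closest were D10Wsu102e (0.72), Odc1 (0.72), Nucks1 (0.74), Ikbkap (0.77) and Ahctf1 (0.83), and for Myc Dock5 (0.98), Raph1 (0.98), Tmc6 (1.01), Noa1 (1.04) and Mast2 (1.05). Klf4 and Myc were 1.16 apart, with 22 other genes closer to Myc and 377 closer to Klf4. The libraries share depth and group structure, so these values describe likeness and carry no test.

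Genes that overlap or adjoin the factors in the annotation were looked up after the factor values had been seen. Sox2 lies within the noncoding gene Sox2ot on the same strand, and Sox2ot stayed at 0.18 to 1.39 CPM in fast MEF and 0.54 to 3.45 CPM in iPS cells. By mean, Sox2ot was highest in slow GMP (22.9 ± 31.4 CPM, SD, 1.85 to 59.0), followed by fast GMP (4.06 ± 3.00). Reads of Pou5f1 and of Gm19553 on the opposite strand cannot be told apart, since the strand setting of the counting is not given. Pvt1, the noncoding gene next to Myc, was at 22.8 ± 9.70 CPM in slow MEF, 7.93 ± 2.92 in bulk MEF and 1.39 ± 0.31 in iPS cells (SD, n = 4 each). In fast MEF it ran from 1.04 to 32.3 CPM, while Myc there stayed between 626 and 759 CPM.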

How the data were processed

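Whole-number read counts per gene symbol for 24 libraries were used as the authors deposited them, with no normalization. The submitters' processing notes name TopHat2 2.0.4, CASAVA 1.8.2 and HTSeq, with build mm9. Roles and settings of the tools, gene annotation and strandedness are not stated there. Per the labels' protocols, cytoplasmic RNA of 1000 sorted cells was reverse transcribed from oligo-dT and amplified, and reads amplified without molecular identifiers are not independent molecules. Library totals were 2098846 to 18648132 counts. Of 37 pairs of libraries within groups, 0 were identical (lowest chi-square per degree of freedom 48.7), so each counted as 1 sample.

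Groups were taken from the labels. They were compared with edgeR 4.0.16 in R 4.3.3 (quasi-likelihood test, robust, TMM factors, filterByExpr, only the groups compared in each fit, no block), two-sided, with Benjamini-Hochberg adjustment over all genes tested and a threshold of 0.05. Standard errors came from these fits, and approximate 95% intervals from the standard errors. Levels in CPM used TMM factors over all 24 libraries. Count ratios used log2 with a pseudocount of 0.5 and an exact permutation test (scipy 1.17.1), two-sided, adjusted over 16 tests. GMP against another group pools both gates with equal weight for each gate. The scripts were tested on simulated data.

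The genes and lists were chosen with earlier results of these data known. Named besides the 4 genes were the 5 genes most alike each of them (reaching a mean of 20 CPM in a group) and, for each list and comparison, up to 2 genes in each direction with the largest change among those past the threshold, without overlap and with a mean of at least 20 CPM. Values of 1 list gene are not reported here. Sox2ot, Gm19553, Pvt1 and Nanog were added after their values were seen. Same-numbered libraries did not deviate together (correlations -0.0544 to 0.0773), so no pairing was used. Alternatives were DESeq2 1.42.0, limma 3.58.1 voom, other size factors and filters, a replicate block, all 24 libraries in 1 fit, removal of Rn45s and Lars2, thinning to the smallest library, other pseudocounts and each library left out.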

Additional observations from a re-analysis of the deposited data

Results flagged for a closer look

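In 40 sets of values from groups of 4 or more libraries, 3 had a library set far apart from the others, and chance gives about 1 in 20. Bulk MEF replicate 3 had the highest Sox2 level, 4.26 CPM, against 0.113 to 0.783 CPM in the other bulk libraries, and the highest Klf4 level, 151 CPM, against 121.5 to 125.5 CPM. Fast GMP replicate 5 had a log2 ratio of Klf4 to Myc of 4.53, against -0.57 to 0.73 in the other fast GMP libraries. For Sox2 the fitted interaction of gate and cell type was 5.62 on the log2 scale (edgeR adjusted p = 0.0374), but with 5 Sox2 counts in each GMP gate no gate difference in GMP could be measured, so the value is no evidence of a difference between MEF and GMP.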

How the results depend on the processing

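The rises of all 4 genes in fast against slow MEF, of Klf4 and Myc in fast against bulk MEF, and the fall of Myc from fast MEF to iPS cells kept their direction and passed under every alternative run. Pou5f1 and Sox2 also kept their direction in fast MEF and iPS cells against bulk MEF. They entered those fits through their fast MEF or iPS counts, and iPS cells were sorted by a reporter of Pou5f1. That direction is therefore a description. The cause of each change below was not tested. Slow against bulk MEF: Myc missed the threshold with upper-quartile factors (-1.31), all 24 libraries (-1.42) and thinned counts (-1.18), and ranged from -1.59 to -0.997 with 1 library left out. Sox2 passed under DESeq2 (2.64) and with the replicate block (3.37), and ranged from 2.08 to 4.29. With all 24 libraries in the fit, Klf4 did not pass in iPS cells against bulk MEF (0.88), nor did Pou5f1 (1.78), Sox2 (0.93) and Klf4 (-1.46) in iPS cells against fast MEF, where Sox2 ranged from 0.72 to 1.12 with 1 library left out. GMP against bulk MEF: Klf4 turned to 0.049 with DESeq2 size factors, 0.15 with upper-quartile factors, 0.25 with a stricter filter, 0.048 under DESeq2 and 0.11 with thinned counts, and ranged from -0.44 to 0.070. Myc passed under voom (-1.62) and with all 24 libraries (-1.63), and ranged from -1.88 to -1.11. Klf4 passed in GMP against iPS cells under voom (-1.25). Fast against slow GMP, with 1 library left out, ran from -0.67 to 0.55 for Klf4 and from -0.022 to 1.16 for Myc. Interaction: Pou5f1 passed with a stricter filter (6.15), DESeq2 (5.99) and all 24 libraries (6.00), Klf4 under DESeq2 (2.74), with the replicate block (3.43) and all 24 libraries (2.95), and Myc under DESeq2 (2.84) and with all 24 libraries (2.96), while Sox2 did not pass under voom (5.71) or with thinned counts (4.82). Ranges with 1 library left out were 3.27 to 6.58 for Pou5f1, 5.24 to 6.54 for Sox2, 2.33 to 3.47 for Klf4 and 2.48 to 3.68 for Myc. The Klf4 to Myc ratio of fast against bulk MEF ran from -0.29 to 0.076.

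Counts of genes called moved by over 1.5 times as follows. With all 24 libraries they were 1246 for fast against slow MEF (3726 in the main analysis), 1513 for fast against bulk MEF (3958), 56 for slow against bulk MEF (1181), 3170 for iPS against bulk MEF (5566), 1675 for iPS against fast MEF (4568), 385 for the GMP gates (0), 5040 for GMP against bulk MEF (2594), 4296 for GMP against iPS cells (2134) and 1069 for the interaction (193). DESeq2 called 1976, 97, 3370 and 1563 for slow against bulk MEF, the GMP gates, GMP against iPS cells and the interaction. Voom called 4668 and 4723 for GMP against bulk MEF and iPS cells. For GMP against iPS cells the calls were 1145 higher and 989 lower in the main analysis, 2177 and 1193 under DESeq2 and 1976 and 2747 under voom. The interaction had 383 calls with a stricter filter and 92 with the block. Without 1 library it had 82 to 575, slow against bulk MEF had 762 without bulk replicate 4 and 759 without slow replicate 3, GMP against bulk MEF 1450 to 1493 without any 1 bulk library, and GMP against iPS cells 1099 to 1116 without any 1 iPS library. The median log2 change of all genes moved from 0.18 to 0.37 for GMP against bulk MEF and from 0.05 to 0.23 for GMP against iPS cells with upper-quartile factors, and to 0.29 and 0.25 with DESeq2 size factors. It turned sign under voom (-0.29 and -0.47) and with the replicate block (-0.20 and -0.40), and was 0.97 and 0.48 with no filter. The replicate block changed no other call on the 4 genes. Depth limits Pou5f1 and Sox2 in bulk MEF and GMP.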

Other observations

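The gene closest in pattern to Sox2 exceeded it by level. Stmn2, which encodes a tubulin-binding protein best known from neurons, stood at 4.21 ± 2.33 CPM in bulk MEF, 75.4 ± 67.9 in slow MEF, 3182 ± 354 in fast MEF and 1192 ± 207 in iPS cells (SD, n = 4 each). Its slow MEF libraries ran from 10.8 to 162 CPM, and its fast MEF libraries lay above its iPS libraries, the reverse of the order of the means for Sox2. Ngfr, a neurotrophin receptor close to Pou5f1 in pattern, was at 122 ± 63.4 CPM in fast MEF and 90.6 ± 30.4 in iPS cells, with overlapping ranges. L1td1, an RNA-binding protein of pluripotent cells, was already at 77.6 ± 10.3 CPM in fast MEF, against 1.09 ± 0.825 in slow MEF and 119.7 ± 25.9 in iPS cells. Sall4 was at 54.6 ± 32.1 CPM in fast MEF and 757 ± 75.5 in iPS cells. These genes were chosen for their likeness in these libraries, so the levels are a description with no test.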
